A study of Saccharomyces cerevisiae with 104 samples.

Results

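The iron regulon genes examined here are 10 genes of iron uptake in budding yeast (Saccharomyces cerevisiae), FRE1 (YLR214W), FET3 (YMR058W), FTR1 (YER145C), ARN1 (YHL040C), ARN2 (YHL047C), SIT1 (YEL065W), FIT1 (YDR534C), FIT2 (YOR382W), FIT3 (YOR383C) and TIS11 (YLR136C), taken by their systematic names from a table of 7122 genes. All 10 passed the filter on low counts, which kept 5822 genes. Their levels were measured in 90 libraries by QuantSeq, which counts polyadenylated RNA from reads at its 3′ end. The libraries came from a wild type (WT) and from 29 histone mutants, 22 with 1 residue of H3 exchanged and 7 with 1 residue of H4 exchanged. All strains share the MSY196 background, which derives from the laboratory strain S288C. A mutant is named by histone, original residue, position and new residue, so H3K4Q carries a glutamine where WT H3 has its lysine 4. There were 4 libraries of WT and of H4Y88A, 2 of H3T3A and of H3T3D, and 3 of every other genotype. The labels do not say whether libraries of a genotype came from separate cultures or clones, so the p-values measure the spread between these libraries, which may be technical.

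When iron is scarce, the transcription activators Aft1 and Aft2 switch on a group of genes known as the iron regulon. Its products bring iron in by a pair of routes. Surface reductases such as Fre1 reduce ferric iron, which the copper-dependent oxidase Fet3 and its partner permease Ftr1 then carry across the plasma membrane. Siderophores, which are iron chelators made by other microbes, are held in the cell wall by the mannoproteins Fit1, Fit2 and Fit3 and taken in by the transporters Arn1, Arn2 and Sit1. The TIS11 product, also called Cth2, binds mRNAs of iron-using proteins and promotes their decay.

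On the R64 assembly, FRE1 lies on chromosome XII at 568567 to 570627 and TIS11 on the same chromosome at 415801 to 416658. FET3 lies on chromosome XIII at 388822 to 390732, and FTR1 on chromosome V at 460526 to 461740. Of the siderophore transporter genes, ARN1 lies on chromosome VIII at 19088 to 20971, ARN2 on chromosome VIII at 8351 to 10213 and SIT1 on chromosome V at 27657 to 29543. FIT1 lies on chromosome IV at 1503314 to 1504900. FIT2, at 1059531 to 1059992, and FIT3, at 1060441 to 1061055, are neighbours on chromosome XV with 448 bases between them. No member overlaps another annotated gene.

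Total gene counts were 768398 to 3143681 per library, apart from H3K4R S55, which had 24010. In that library 4 members had no count and the best covered member had 17 counts. The sample numbers in the column names form 3 runs, here called the first set (S46 to S93, 44 libraries, 3 of WT), the second set (S94 to S117, 22 libraries, none of WT) and the third set (S118 to S141, 24 libraries, 1 of WT). The labels do not say what these runs are. Of the 30 genotypes, 8 (H3K18A, H3K37Q, H3K37R, H3R40K, H3S31D, H3T3A, H3T3D and H4R55A) lay wholly in the third set, so for them set and mutation can be told apart only through WT S133 and H4Y88A S132. Genes specific to MATalpha cells summed to 888 to 3650 CPM (counts per 1e+06 counts) and the 6 listed MATa genes to 7.66 to 250 CPM. These sums were taken without scaling, whereas the CPM of the members are after scaling. The top of the MATa range is the shallow library H3K4R S55, where a few counts give a high CPM. In bulk RNA, fewer cells expressing a gene and less RNA per cell cannot be told apart.

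With all 90 libraries in the model, no member was called in any mutant against WT. A call needed an adjusted p under 0.05 in edgeR's quasi-likelihood test with Benjamini-Hochberg adjustment over all tested genes. Of 290 tests of a member in a mutant, 0 were called higher and 0 lower, where 0.839% of tests over all genes were called higher and 0.53% lower (1.37% in either direction). This model has no term for the set, so differences between sets within a genotype enter its spread. The 0 calls therefore do not show that levels were equal. DESeq2 also called 0 in each direction, but it gave no adjusted p for 9 of the member tests, which could not be called. At an unadjusted p under 0.05, 16 of the 290 tests passed, 10 higher and 6 lower than WT, against 11.5% of tests over all genes. For the mean of the 29 mutants against WT, 0 members were called and 0 had an unadjusted p under 0.05, where 0.137% and 6.51% of all genes did.

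Asked whether the 30 genotypes differed at all, the same model called 2 of the 10 members, FTR1 (adjusted p = 0.00884) and ARN1 (adjusted p = 0.00342), where 52.3% of all genes were called. The count depended on the fit, with 7 members called by DESeq2 (60.5% of all genes), 10 with the set as covariate (60.6%) and 8 without H3K4Q S98. Genotypes next to each other in the order of mean level overlapped in their library values in all 29 neighbouring pairs, for each of the 10 members. The order of genotypes is therefore a description of means.

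FRE1, the surface ferric and cupric reductase, was at 190, 400, 229 and 217 CPM in the 4 WT libraries (mean 259 ± 95.1, SD). Its lowest genotype was H3K121Q, with 42.5, 73.5 and 213 CPM, and its highest was H3S86D, with 443, 352 and 476 CPM. The H3K121Q value that lay inside the WT range was the second-set library. The log2 fold changes over WT were -1.25 (SE 0.53, adjusted p = 0.250) and 0.71, and neither was called.

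FET3, the multicopper oxidase, had the same strains at its ends. WT was at 253, 398, 274 and 136.6 CPM (mean 265 ± 106.97), H3K121Q at 58.4, 82.7 and 203 CPM and H3S86D at 536, 419 and 684 CPM. H3S86D was the only mutant with every library above every WT library, and no mutant lay wholly below. Its log2 fold change was 1.04, and that of H3K121Q was -1.21 (SE 0.56, adjusted p = 0.300).

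FTR1, the permease that works with Fet3, spanned the narrowest range of genotype means of the 10 members, from 90.4 CPM in H3K121Q to 312 CPM in H3S86D, a ratio of 3.45. WT was at 216, 206, 193 and 120.6 CPM, where the lowest value was WT S133. H3K121Q was at 47.5, 75.01 and 149 CPM, so its second-set library overlapped WT. The H3S86D libraries, at 311, 262 and 362 CPM, lay above all of WT, as did those of 3 other mutants. The fold change of H3K121Q was -1.03 on the log2 scale (SE 0.36, adjusted p = 0.150).

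ARN1, ARN2 and SIT1 encode siderophore transporters. ARN1 was at 14.3, 11.6, 12.5 and 9.86 CPM in WT (mean 12.1 ± 1.84) and at 57.7, 24.5 and 19.8 CPM in H4K44Q, its highest genotype. All H4K44Q libraries lay above WT, with a log2 fold change of 1.49 (SE 0.53, adjusted p = 0.283). Its lowest genotype, H3K4R, had 0, 3.27 and 5.52 CPM, of which the 0 is the shallow library S55.

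ARN2 was at 21.1, 31.9, 24.1 and 34.3 CPM in WT and highest in H3K37R, at 142, 53.7 and 95.2 CPM. The H3K37R libraries all lay above WT, with a log2 fold change of 1.80 (SE 0.71, adjusted p = 0.298). Its lowest mean was in H3T3A, at 11.5 and 8.33 CPM. SIT1 was also highest in H3K37R, at 259, 123.1 and 164 CPM against 57.1, 81.5, 66.2 and 49.3 CPM in WT. Its lowest mean was in H3K121Q, at 5.94, 11.6 and 37.4 CPM, all below WT.

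FIT1, FIT2 and FIT3, the cell wall mannoproteins, had the widest ranges. The FIT2 mean went from 122.1 CPM in H3S31D (128.3, 71.5 and 166 CPM) to 1798 CPM in H3K37R (1976, 1382 and 2035 CPM), a ratio of 14.7. FIT3 went from 90.1 CPM in H3S31D to 1825 CPM in H3K18A, where the libraries were at 1458, 2867 and 1150 CPM. FIT1 had few counts in WT, at 6.80, 2.53, 4.52 and 9.86 CPM, and was highest in H3K18A, at 38.9, 149 and 26.5 CPM.

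WT itself was divided for these genes. FIT2 was at 175, 178 and 163 CPM in WT S46, S81 and S82 and at 745 CPM in WT S133, and FIT3 was at 211, 156 and 125.4 CPM against 567 CPM. The standard error of a fold change over WT had a median of 1.36 for FIT2, 1.39 for FIT3 and 1.51 for FIT1 on the log2 scale. It takes the spread within all 30 genotypes, which in this model includes differences between sets. Within the first set alone the medians were 0.33, 0.42 and 0.67 in the same order. With all libraries, the FIT1 difference in H3K18A, 3.59 on the log2 scale, had an adjusted p of 0.369. With only the mutant and WT in the model it was called (3.61, adjusted p = 0.0301), as were FIT3 in H3K18A and FIT1, ARN2 and SIT1 in H3K37R (adjusted p from 0.00160 to 0.0486), where 0.26% of tests over all genes were called higher. Both strains lie wholly in the third set, and 3 of the 4 WT libraries lie in the first. Set and mutation are therefore not separated in these calls. With the set as covariate, none of these differences was called. FIT1 and FIT3 in H3K18A then differed by 1.635 and 0.70 on the log2 scale. FIT1, ARN2 and SIT1 in H3K37R differed by 1.48, -0.05 and -0.24. In the model with all genotypes and no covariate, leaving out WT S133 still gave 0 calls in either direction.

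TIS11 was near the limit of detection, at 6.80, 4.55, 2.01 and 4.69 CPM in WT and with no count in 4 libraries. Its mean ranged from 0.798 CPM in H3K4R to 10.4 CPM in H3S86D, where the libraries were at 5.91, 2.38 and 22.98 CPM. The lower pair of these values lay inside the WT range.

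**Figure D1:**
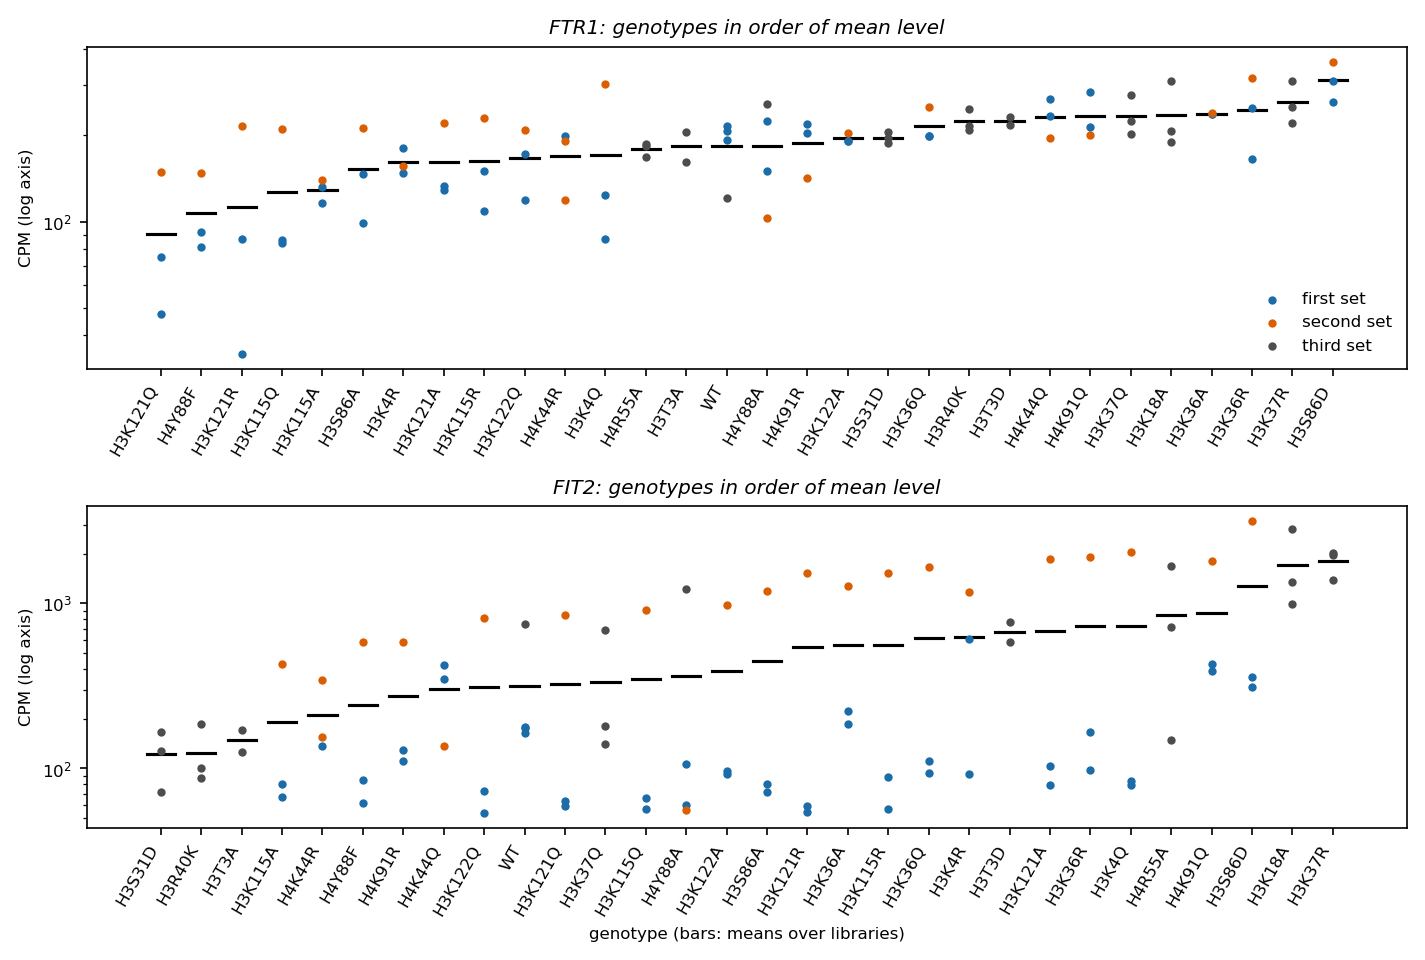
FTR1 (top) and FIT2 (bottom) in CPM on a log axis, with genotypes ordered by mean level, 1 point per library coloured by set and a bar for the mean. FIT2 lies between 53.5 and 612 CPM in first-set libraries, where the top is the shallow library H3K4R S55, and between 56.4 and 3160 CPM in the second set. Within strains, FIT2 averaged higher in the second set in all 15 H3 strains and in 4 of 6 H4 strains.

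The members' levels also differed between sets, within genotypes. In a model with genotype and set over the 22 genotypes found in more than 1 set (68 libraries), all 10 members were called higher in the second set than in the first, where 21.2% of all genes were. These sets were compared after the values had been seen. The FIT genes differed most. FIT1 was higher by 3.45 on the log2 scale (SE 0.28, adjusted p = 2.17e-14), which is 10.95-fold, FIT3 by 3.38 (10.4-fold) and FIT2 by 3.20 (9.20-fold).

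Median FIT2 was 93.2 CPM in the first set (53.5 to 612), 1077 CPM in the second (56.4 to 3160) and 634 CPM in the third (71.5 to 2805). The top of the first-set range is H3K4R S55, where 17 counts gave 612 CPM, and the next value was 428 CPM. Median FIT3 was 92.6, 1051 and 482 CPM in the same order, and median FIT1 was 2.81, 28.2 and 8.53 CPM. The ranges of all 3 sets overlapped for each FIT gene.

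The other members rose less between the first and second sets. TIS11 was higher by 1.30 (SE 0.30), ARN2 by 1.24 (SE 0.20) and SIT1 by 1.20 (SE 0.25) on the log2 scale. ARN1 was higher by 0.79, FET3 by 0.76, FRE1 by 0.65 and FTR1 by 0.44, with adjusted p-values from 0.000256 to 0.00227. All 10 stayed called whichever of the 68 libraries was left out.

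The third set was called higher than the first for 4 members, where 1.44% of all genes were. These were FIT2 (3.51 on the log2 scale, adjusted p = 0.00167), FIT1 (3.20), FIT3 (3.01) and ARN2 (2.41). This difference rests on WT S133 and H4Y88A S132 alone, the only third-set libraries of genotypes that the first set also holds. FET3, FTR1, ARN1, SIT1, FRE1 and TIS11 had fitted differences of 0.10 to 2.06, and none was called.

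**Figure D2:**
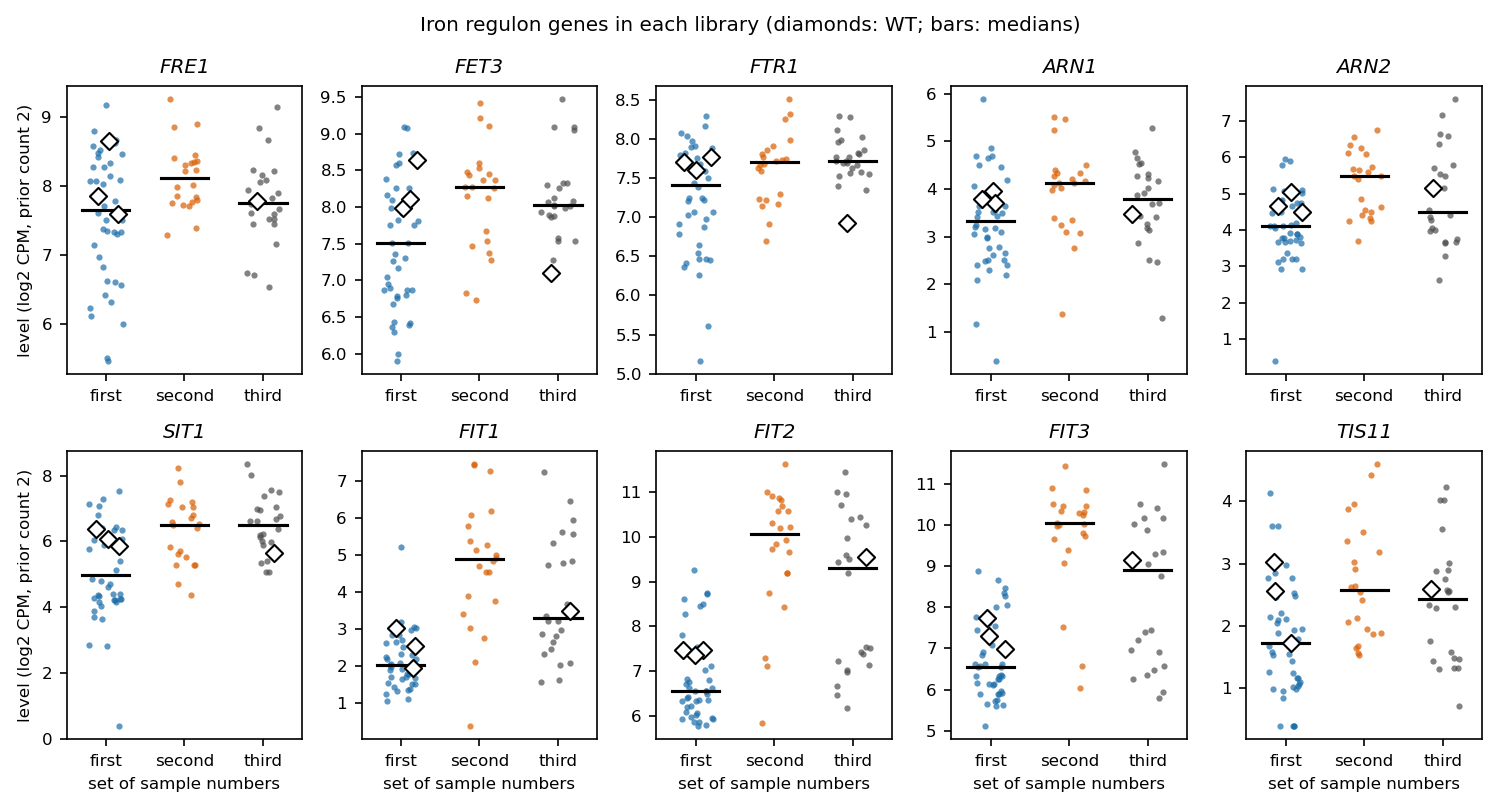
Log2 level (CPM with a prior count of 2) of each member in the 90 libraries by set, with diamonds for WT and bars for medians. The second-set median lies above the first-set median for every gene, by most for FIT1, FIT2 and FIT3, and the second set holds no WT.

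The size of the difference between the first and second sets was then compared between H3 and H4 strains. Each of 15 H3 strains had 2 first-set libraries and 1 second-set library, and 6 H4 strains had libraries in both sets. FIT2 was higher in the second set by 3.68 ± 0.75 (SD, n = 15) on the log2 scale in H3 strains, with all 15 above 0, and by 1.03 ± 1.75 (n = 6) in H4 strains, with 4 above 0. FET3 differed by 1.13 ± 0.69 in H3 strains, again all above 0, and by -0.39 ± 0.79 in H4 strains, of which 1 was above 0. SIT1 differed by 1.89 ± 0.92 and -0.29 ± 1.31, and ARN2 by 1.75 ± 0.82 and -0.12 ± 0.96.

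An exact two-sided permutation of the 21 strains (54264 arrangements) gave unadjusted p-values of 0.000166 for FIT2 to 0.0178 for FRE1, under 0.05 for all 10 members, where 9.77% of all genes were. After adjustment over all genes they were 0.181 to 0.424, and 0 members and 0 genes (0%) were called. edgeR, with 1 coefficient per genotype and set, called the difference between H3 and H4 strains for 9 members, where 1.93% of all genes were called. The exception was TIS11 (adjusted p = 0.0522). The edgeR test takes libraries and the permutation takes strains as the unit, and the tests also differ in method. The smallest p that the permutation can give is 1.8e-05, so a gene alone at that value could not be called over 5822 genes. The p-values of all 10 members lay above it.

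H4K44Q and H3K4Q, picked after their values were seen, lay at or near opposite ends of this difference for FIT2. In H4K44Q, FIT2 was at 351 and 424 CPM in the first set and at 137.2 CPM in the second, and FET3 at 544 and 425 CPM and then 282 CPM. In H3K4Q, FIT2 was at 83.9 and 79.1 CPM in the first set and at 2038 CPM in the second, and FET3 at 81.1 and 84.6 CPM and then 549 CPM. The direction between sets was opposite in H4K44Q and H3K4Q. Not all H4 strains were like H4K44Q. H4Y88F was higher in the second set, by 2.99 for FIT2 and 1.16 for FET3 on the log2 scale.

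**Figure D3:**
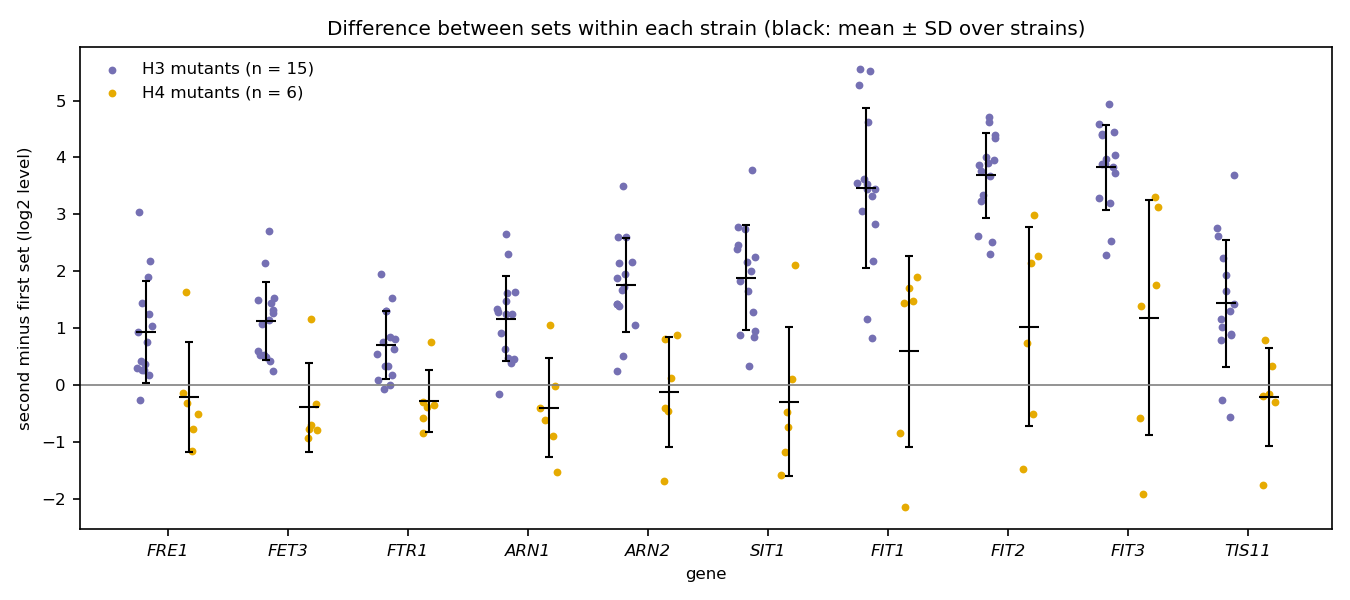
Second-set minus first-set log2 level of each member within 15 H3 strains and 6 H4 strains, 1 point per strain, with the mean and SD in black. For FIT2 the H3 strains average 3.68 and the H4 strains 1.03, and H4 strains fall on both sides of 0.

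Within the first set alone, 21 mutants were compared with 3 WT libraries, and many members fell. H4K44R had 1 first-set library, so its 10 tests took their spread from the other genotypes. Of 210 tests, 35 were called lower (16.7%) and 1 higher, where 0.65% of tests over all genes were called lower and 0.872% higher. The genotypes differed for 9 of 10 members, all but FIT1, where 39.1% of all genes were called. This split was made after the values had been seen. The median of the members' log2 fold changes was -0.77, against -0.02 over all genes. All 10 members had a negative fold change in 10 mutants, and all 10 a positive one in H4K44Q and H4K91Q.

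The decreases lay in 9 mutants, 8 of them on H3. H3K121R had 7 members called lower, H3K121Q and H3K4Q had 6 each, H3K115Q, H3K122Q and H4Y88F had 4 each, H3K115A had 2, and H3K115R and H3S86A had 1 each. In H3K121R, H3K121Q and H3K4Q the calls over all genes were also more frequent, at 7.26%, 5.09% and 2.90% of genes. In H3K121R, the 298 tested genes of chromosome XI had a median first-set log2 fold change of 0.91, against -0.05 for the other genes. No member lies on chromosome XI, and the part of this in the H3K121R calls was not tested. None of the 3 H3K36 mutants had a called member, although H3K36A had 5.81% of all genes called.

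FRE1 fell in 4 mutants. First-set WT was at 190, 400 and 229 CPM. H3K121Q was at 42.5 and 73.5 CPM (log2 fold change -2.24, SE 0.36, adjusted p = 0.000106) and H3K121R at 95.4 and 43.7 CPM (-2.00). H4Y88F, at 67.5 and 78.5 CPM, fell by 1.93 and H3K4Q, at 84.4 and 62.5 CPM, by 1.89 on the log2 scale. In each of these mutants both libraries lay below all 3 WT libraries.

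FET3 fell in 8 mutants, from 253, 398 and 274 CPM in WT. The lowest was H3K121Q, at 58.4 and 82.7 CPM (-2.14 on the log2 scale, SE 0.32, adjusted p = 5.22e-05). H4Y88F was at 85.5 and 77.6 CPM (-1.94), H3K4Q at 81.1 and 84.6 CPM (-1.90) and H3K121R at 110 and 62.3 CPM (-1.86). All 3 H3K115 substitutions fell, H3K115Q by 1.47, H3K115A by 1.43 and H3K115R by 1.35 (adjusted p = 0.0499). H3K122Q fell by 1.16. FET3 was also the member called in the mean of the 21 mutants, which lay 0.82 below WT on the log2 scale (adjusted p = 0.0133), where 0.448% of genes were called.

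FTR1, which acts with FET3, fell in 5 of the same mutants. Against 216, 206 and 193 CPM in WT, H3K121R was at 86.8 and 34.5 CPM (-1.79, adjusted p = 9.19e-05) and H3K121Q at 47.5 and 75.01 CPM (-1.75). H3K115Q fell by 1.27, H4Y88F by 1.26 and H3K4Q by 0.95 on the log2 scale.

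SIT1, the transporter for ferrioxamine-type siderophores, fell in 8 mutants and held the largest of the called decreases. WT was at 57.1, 81.5 and 66.2 CPM, H3K121Q at 5.94 and 11.6 CPM (-2.93, SE 0.51, adjusted p = 0.000440) and H4Y88F at 5.75 and 15.0 CPM (-2.80). H3K121R was at 17.2 and 11.3 CPM, H3K115Q at 13.6 and 17.4 CPM and H3K115A at 18.05 and 19.9 CPM. H3K122Q, H3K4Q and H3S86A completed the 8, with fold changes of -1.81, -1.68 and -1.64 on the log2 scale. All their libraries lay below WT.

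ARN2 fell in H3K121R (-1.86), H3K4Q (-1.83) and H3K121Q (-1.39), from 21.1, 31.9 and 24.1 CPM in WT to between 6.25 and 11.6 CPM. ARN1 fell in H3K4Q, at 0.927 and 3.95 CPM against 14.3, 11.6 and 12.5 CPM (-2.55, adjusted p = 0.00962). ARN1 in H4K44Q, at 57.7 and 24.5 CPM, was the only member called higher (1.65, SE 0.36, adjusted p = 0.0166).

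FIT2 fell in H3K121R, at 54.7 and 59.6 CPM against 175, 178 and 163 CPM (-1.60, SE 0.35, adjusted p = 0.00280). Its other decreases were in H3K121Q (-1.50), H3K115Q (-1.48) and H3K122Q (-1.45). FIT3, its neighbour, fell in H3K122Q (-1.67) and H3K121R (-1.50). FIT1 and TIS11, the members with the fewest counts, had no call in the first set. H4K44Q and H4K91Q went the other way without a call, with FIT2 at 351 and 424 CPM and at 387 and 428 CPM.

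Leaving out 1 library moved these counts. Without WT S81, the highest of the 3 first-set WT libraries for FRE1, FET3, ARN2 and SIT1, 20 decreases were called in place of 35, and without H3K4R S55 or S56 there were 47. The increase was lost without H4K44Q S92 or WT S82, and without H3K4R S56 there were 4. Of the 36 calls, 7 held whichever library was left out. These were FET3, SIT1 and FRE1 in H3K121Q, FET3, FTR1 and FRE1 in H3K121R, and FET3 in H4Y88F.

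In the 9 mutants with a decrease, FET3 and SIT1 were higher in the single second-set library than in both first-set libraries. H3K115A, H3K121Q and H4Y88F were still below every first-set WT library there, with FET3 at 164, 203 and 184 CPM and SIT1 at 37.7, 37.4 and 45.02 CPM. H3K121R, at 370 and 103.97 CPM, was not. In H3K4Q, FET3 was at 549 CPM, FRE1 at 609 CPM and SIT1 at 298 CPM, each above all 4 WT libraries. The second set has no WT library, so these values have no control of their own set.

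**Figure D4:**
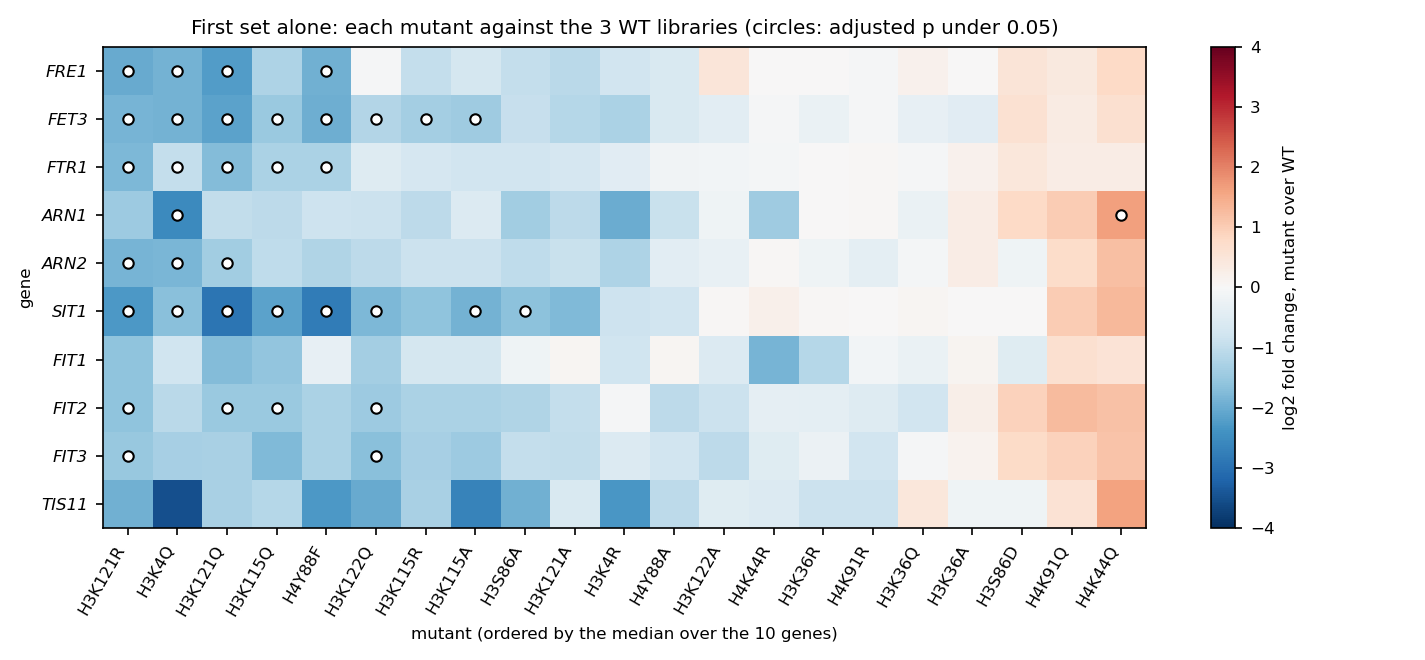
Log2 fold change of each member in 21 mutants over WT within the first set, with mutants ordered by the median over the members and circles for adjusted p under 0.05. Of the 36 circles, 35 mark decreases, most of them in the H3K121R, H3K121Q, H3K4Q, H3K115Q, H3K122Q and H4Y88F columns, and 1 marks ARN1 in H4K44Q.

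The third set held 9 mutants and 1 WT library, and the lone WT library was assumed to vary like the other genotypes. The genotypes differed for 9 members, all but FET3, where 53.3% of all genes were called. FTR1 was called higher than WT S133 in 5 mutants, H3K37R (1.13 on the log2 scale), H3K18A (0.98), H3K37Q (0.93), H3R40K (0.92) and H3T3D (0.89), with adjusted p-values from 0.0149 to 0.0416. Of 90 tests, these 5 were the calls, where 2.06% of all tests were called higher, 1.61% lower and 17.8% had an unadjusted p under 0.05 (24 of the 90 did).

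WT S133 is the only control for these calls. It had FTR1 at 120.6 CPM, against 193 to 216 CPM in the other 3 WT libraries, and lay below every third-set mutant library. It also had the lowest FET3 of the set, at 136.6 CPM. Without H3T3D S134 or S135 there were 3 increases, and without H4R55A S126 there were 3 decreases where there had been 0.

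Among the third-set mutants, FIT2 and FIT3 were higher in H3K18A and H3K37R than in H3R40K, H3S31D and H3T3A. Other strains lay between or across them. FIT2 was at 1353, 2805 and 997 CPM in H3K18A and at 1976, 1382 and 2035 CPM in H3K37R. It was at 101.3, 87.1 and 185 CPM in H3R40K, at 128.3, 71.5 and 166 CPM in H3S31D and at 125.3 and 171 CPM in H3T3A. WT S133, at 745 CPM, lay between them, as did H3T3D at 580 and 769 CPM. H4R55A, at 721, 1684 and 149 CPM, had libraries among both the high and the low strains. H3K37Q averaged 336 ± 305 CPM (SD, n = 3), with all its libraries below WT S133. H4Y88A S132 was at 1228 CPM.

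With all 90 libraries and the set as a covariate, 7 decreases and 0 increases were called, where 1.48% of tests over all genes were called in either direction. In H3R40K these were FIT2 (-3.72), FIT3 (-3.58), ARN2 (-3.01) and TIS11 (-3.06), and in H3S31D they were FIT2 (-3.75) and FIT3 (-3.65), all on the log2 scale. Both strains lie wholly in the third set, so these values rest on WT S133 and H4Y88A S132. The remaining call was FTR1 in H3K121Q (-1.22, adjusted p = 0.0442). That fit takes the difference between sets as equal in all strains, which the H3 and H4 strains above do not show.

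**Figure D5:**
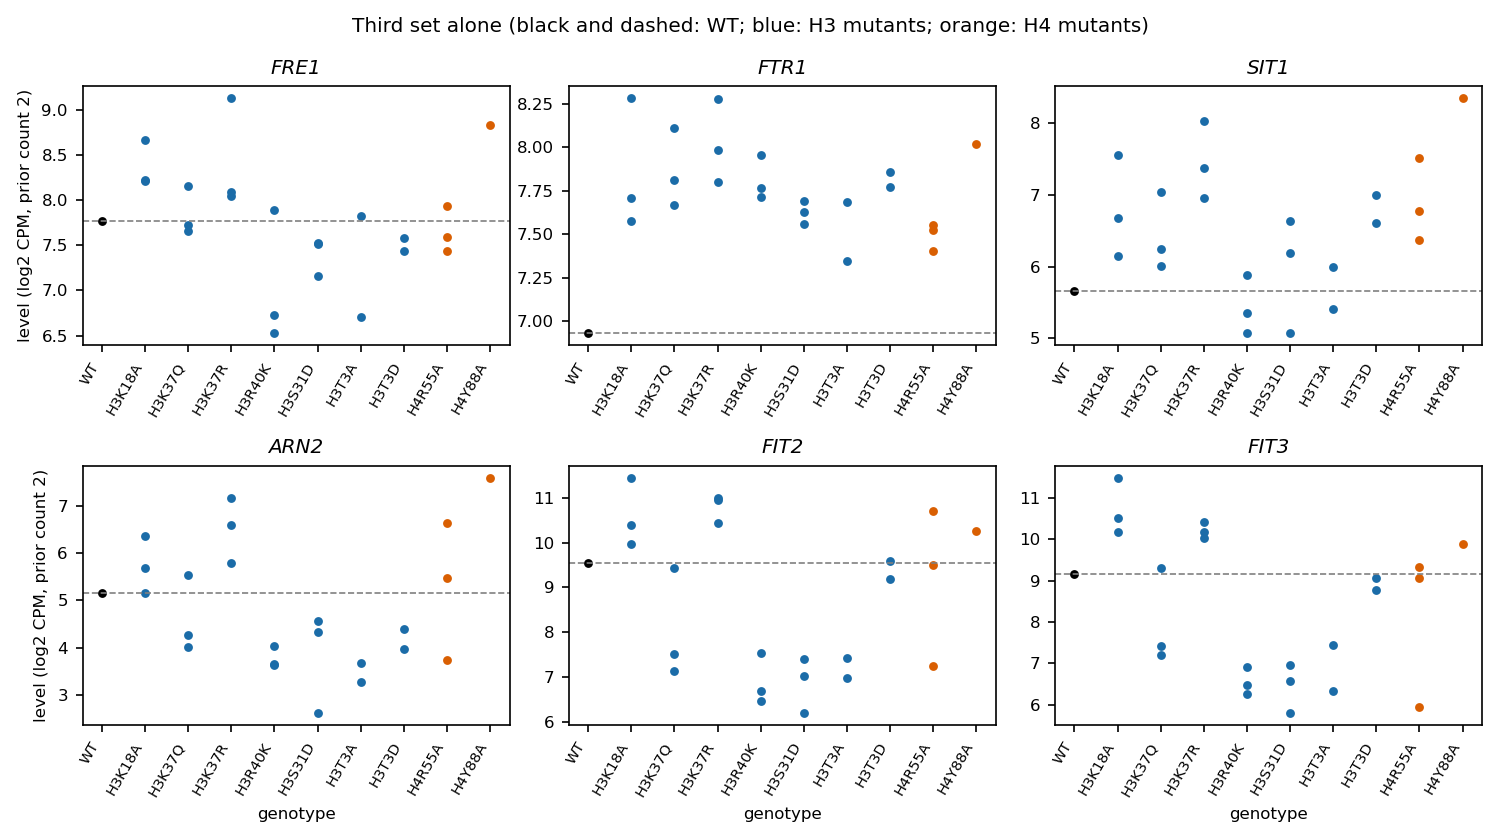
Log2 level of FRE1, FTR1, SIT1, ARN2, FIT2 and FIT3 in the 24 third-set libraries, 1 point per library, with WT S133 in black and as a dashed line. H3K18A and H3K37R lie above the line and H3R40K, H3S31D and H3T3A below it for FIT2 and FIT3, and all mutant libraries lie above it for FTR1.

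Substitutions of the same residue were compared in 17 pairs, which do not use WT. With all libraries and no term for the set, 0 of 170 tests were called, where 0.683% of tests over all genes were. At an unadjusted p under 0.05 there were 11, against 6.06% over all genes. The smallest adjusted p was 0.162, for SIT1 in H4Y88A against H4Y88F.

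Within the first set, 11 of 150 tests were called, where 0.726% were over all genes. Serine 86 of H3 gave 5 of them. FIT2 was at 72.2 and 80.5 CPM in H3S86A and at 360 and 311 CPM in H3S86D, a difference of -2.14 on the log2 scale (SE 0.36, adjusted p = 0.00119). FET3, at 109.1 and 225 CPM against 536 and 419 CPM, differed by -1.53, and ARN1, FRE1 and FTR1 by -2.20, -1.47 and -1.23. The aspartate strain was the higher in each, without overlap.

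Tyrosine 88 of H4 gave 4 calls, all higher in the alanine than in the phenylalanine strain. SIT1 was at 64.8 and 16.6 CPM in H4Y88A and at 5.75 and 15.0 CPM in H4Y88F (2.02 on the log2 scale, adjusted p = 0.0290). FRE1 differed by 1.34, FET3 by 1.32 and FTR1 by 1.12. The single second-set libraries had the opposite order for all 4 genes. There FET3 was at 112.8 CPM in H4Y88A and 184 CPM in H4Y88F, FTR1 at 102.6 and 148 CPM, SIT1 at 19.2 and 45.02 CPM and FRE1 at 165 and 229.9 CPM. The remaining calls were FIT2 in H4K91Q, at 387 and 428 CPM, against H4K91R, at 128.5 and 111.5 CPM (1.78), and FTR1 in H3K121A against H3K121R (1.10, adjusted p = 0.0496). H3K121R is the strain with raised levels over chromosome XI, and the part of this in the FTR1 call was not tested.

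In the third set, 3 of 20 tests over 2 pairs were called, where 6.4% of tests over all genes were. All 3 were members lower in H3K37Q than in H3K37R, and H3T3A against H3T3D had no member called. The 6.4% covers both pairs, so it is not the share for the H3K37 pair alone. FIT1 differed by -2.81, FIT2 by -2.48 and ARN2 by -2.07 on the log2 scale, with adjusted p-values of 0.0263, 0.0444 and 0.0444. FIT2 was at 181, 140 and 687 CPM in H3K37Q, so its highest library was still below the lowest of H3K37R, 1382 CPM. With all libraries, chromosome XI genes had a median log2 fold change over WT of 0.84 in H3K37Q and -0.03 in H3K37R. The part of this in these calls was not tested.

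The members varied together over genotypes. Pearson's r between the genotype means of 2 members ranged from 0.36 (ARN1 and FIT1) to 0.96 (FIT2 and FIT3), with a median of 0.68 over 45 pairs and 30 genotypes, which share libraries, sets and depth. On the mean standardised level of the 10 members, H3K121Q (-1.34) and H4Y88F (-1.20) were lowest, H3K37R (1.89), H3K18A (1.60) and H3S86D (1.45) were highest and WT was at 0.11. The genes outside the members most like this pattern were FTH1 (r = 0.81), an iron transporter of the vacuole, ENB1 (0.78), a transporter of the siderophore enterobactin, FRE5 (0.75), which encodes a putative reductase, PLB2 (0.73), a phospholipase gene, and YPP1 (0.72).

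Of 20 further genes known as targets of Aft1 or Aft2 or induced by low iron, 19 were tested. In the second set 15 of 18 were called higher than in the first and 0 lower. Over all genes, 1204 of 5688 (21.2%) were called higher and 1136 of 5688 lower. The median was 0.48 on the log2 scale, against 1.22 for the members and -0.02 for all genes. In the first set alone 13 of 399 tests were called lower and 4 higher, where 0.65% and 0.872% of tests over all genes were. ENB1 had 6 of the decreases, in H3K115Q, H3K115R, H3K121Q, H3K121R, H3K122Q and H3K4Q. The 4 increases were all FRE2, a reductase gene at 2.38 ± 2.18 CPM in WT, which was called higher in H3K121R, H3K36A, H3K36Q and H4K44Q. With all libraries FRE2 was called higher in H3K121R and H3K37Q, ISU2, an iron-sulphur scaffold gene, lower in H4R55A, and ECM4 lower in H3R40K. These were 2 increases and 2 decreases in 551 tests, where 0.839% and 0.53% of tests over all genes were called. FRE2 lies on chromosome XI, whose 298 tested genes had a median log2 fold change of 0.89 in H3K121R and 0.84 in H3K37Q, against -0.01 and -0.04 for the other genes, and the part of this in the FRE2 calls was not tested.

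Of 7 genes that regulate the iron response, with all libraries, 1 of 203 tests was called higher, GRX3 in H3R40K (0.79). Another 1 was called lower, FRA2 in H3T3D (-1.15). Over all genes, 0.839% of such tests were called higher and 0.53% lower. Both products act in the iron signal to Aft1. In the first set alone 5 of 147 tests were called lower and 0 higher, against 0.65% and 0.872% of tests over all genes. AFT1, which was singled out after its values were seen, was at 84.5 ± 9.47 CPM in WT and gave 4 of these decreases, in H3K121A, H3K121Q, H3K121R and H4Y88F, by up to 1.04 on the log2 scale. The other was FRA1, also named after its values were seen, in H3K121Q (-0.74). Between sets, 4 of 6 tested regulators were called higher in the second than in the first and 0 lower. Over all genes, 1204 of 5688 were called higher and 1136 lower.

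Copper genes were included because Fet3 needs copper. In the first set, 6 copper genes tested in 21 mutants gave 11 decreases and 0 increases, where 0.65% and 0.872% of tests over all genes were called. CTR1, the high-affinity copper transporter, fell in 7 mutants, among them H3K115Q (-1.43), and FRE7, a copper-regulated reductase gene, fell in H3K121Q, H3K121R, H3K4Q and H4Y88F, by up to 2.00 on the log2 scale. MAC1, the copper-sensing activator, and CTR3 had no call against WT.

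The mRNAs known to be bound by the TIS11 product gave 8 increases and 2 decreases in 210 first-set tests, where 0.872% and 0.65% of tests over all genes were called. SDH2, a subunit of succinate dehydrogenase, was higher in H3K121A and H3K121Q, and SDH4 and RIP1 were higher in H3K121Q. SDH2 and RIP1 had few counts, at 2.535 ± 1.525 and 4.46 ± 2.15 CPM in WT, and SDH4 was at 29.15 ± 18.29 CPM. The other 4 increases were CYT1, named after its values were seen, in H3K121A, H3K121Q, H3K121R and H4Y88F. The 2 decreases were CYT1 in H4K44Q and CCP1, also named after its values were seen, in H3K36A. TIS11 itself was not called in these strains. The genes of iron-sulphur cluster assembly gave 1 increase and 0 decreases in 252 tests. The increase was NFU1, another chromosome XI gene, in H3K121R (1.36). The genes of high iron and low-affinity transport gave 0 increases and 1 decrease over 5 genes in 21 mutants. The decrease was CCC1, the vacuolar iron importer, in H3K36A (-1.10). With all libraries, the mRNAs bound by the TIS11 product had 0 of 290 tests called higher and 1 lower, LEU1 in H3R40K. Over all genes, 0.839% of tests were called higher and 0.53% lower in that fit.

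The authors' deposited table of log2 fold changes gave each mutant 1 value per gene. For SIT1 and FRE1 the sign of the authors' value matched the pooled fit in 29 of 29 mutants, and for FIT2 and FIT3 in 26. The authors' values for SIT1 in that deposited table ranged from -1.36 to 1.21, and those for FIT1 from -0.44 to 2.41.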

How the data were processed

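QuantSeq counts per gene were deposited by the authors as raw counts, without normalization, for 90 libraries. Per the submitters' processing notes, the tools were featureCounts 1.5.3, HTSeq and TopHat and the genome build was sacCer3, with no step named, and the strand setting is not given in the sources used here. A sheet of log2 fold changes over WT was deposited by the authors. Its index describes the values as mutant over WT with replicates averaged, and the method is otherwise not given in the sources used here. The 5 summary lines of the counter were left out. Reads counted as belonging to no feature came to 40.6% to 101% of the gene counts.

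The count test was edgeR 4.0.16 (R 4.3.3), with TMM scaling, filterByExpr over genotypes (5822 genes) and a robust quasi-likelihood model with 1 coefficient per genotype (60 residual degrees of freedom, common dispersion 0.0543). Tests were two-sided, with p-values adjusted by Benjamini and Hochberg over all genes within a comparison. CPM were computed after scaling, except for the sums of mating-type genes. A prior count of 2 was added for log2 levels. The members, lists and tests were chosen with earlier results of these data known. Columns carry a genotype and a sample number, so libraries are named as in WT S133. In all 92 pairs of libraries of 1 genotype, chi-square was at least 2.09 times its degrees of freedom, above counting error.

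All 10 members were to be named, with up to 4 genes of each other list, those called in the most mutants (ties by size of fold change), and the 5 genes most like the members by Pearson's r over genotype means. Symbols and positions came from RefSeq (R64), which matched 84.9% of the table's genes. Alternatives were DESeq2 1.42.0, RLE scaling, no filter, the set as covariate, the mean of the other mutants as reference, only the mutant and WT in the model, and each library left out. Fits within a set and the comparison of sets were added after the data were seen. The 14 ATAC-seq samples were not analysed here.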

Additional observations from a re-analysis of the deposited data

Results flagged for a closer look

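In the genotypes with 4 libraries, a single library stood far from the others for 7 of 20 checks of a member in WT or H4Y88A, where chance gives about 5%. The checks share 8 libraries and the members vary together, so they are not independent. H4Y88A S132, the only third-set library of that strain, was the high one for FIT1 (47.6 CPM), FIT2 (1228 CPM), FIT3 (949 CPM), ARN2 (192 CPM), SIT1 (326 CPM) and FRE1 (455 CPM). The nearest other H4Y88A library had FIT2 at 106.96 CPM and SIT1 at 64.8 CPM. WT S133, the only third-set library of WT, was the high one for FIT2 (745 CPM against 163 to 178 CPM). The part of the set in these values was not tested.

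The difference between the second and first sets differed between H3 and H4 strains for 9 members in edgeR. The H3 value exceeded the H4 value on the log2 scale by 1.49 for FET3, 0.98 for FTR1, 3.91 for FIT1, 2.68 for FIT2, 2.65 for FIT3, 1.76 for ARN1, 1.90 for ARN2, 2.09 for SIT1 and 1.13 for FRE1. The edgeR model had 23 residual degrees of freedom. The exact permutation over strains called none of the 9 after adjustment over all genes. Its unadjusted p-values for them, 0.000166 to 0.0178, all lay above 1.8e-05, the smallest it can give. A gene alone at that smallest value could not be called over 5822 genes.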

How the results depend on the processing

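No paired analysis was possible because the columns carry no replicate number. With DESeq2, RLE scaling and no filter, the pooled comparisons of mutants with WT kept 0 calls of a member. DESeq2 gave no adjusted p for 9 of these member tests. It called 7 members (60.5% of all genes) as differing among the 30 genotypes in place of 2. With the set as covariate there were 7 decreases (0.579% of tests over all genes), 10 members differed among genotypes (60.6%) and 3 differences lay between substitutions (1.12%). With the mean of the other mutants as reference there were 5 increases (2.33%), of FET3, FTR1 and ARN1 in H3S86D, ARN2 in H3K37R and ARN1 in H4K44Q, and 1 decrease (1.16%), of FTR1 in H3K121Q. With only the mutant and WT in the model there were 5 increases (0.26%) and 1 decrease (0.124%), of ARN2 in H3R40K. Each of these lay in a strain found only in the third set. The first set alone gave 1 increase, 35 decreases, 9 members differing among genotypes, 1 in the mean of the mutants (FET3) and 11 between substitutions. The third set alone gave 9 members differing among genotypes and 3 differences between substitutions. Its comparisons with WT rest on WT S133 alone. In the mean of its mutants, members differed from WT S133 by -0.60 (FIT3) to 1.17 (FET3) on the log2 scale, with FTR1 at 0.875. For first-set increases RLE scaling gave 2 (0.99%). edgeR with 1 coefficient per genotype and set called 9 members for H3 against H4 strains.

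Leaving out each library in turn gave 0 to 2 pooled decreases, 2 to 8 members differing among genotypes and 0 to 1 differences between substitutions. The 2 decreases appeared without H3K121Q S110 or H3K121R S109, the second-set libraries of those strains, and the 8 members without H3K4Q S98. First-set increases ranged from 0 to 4 and decreases from 20 to 47. Third-set increases ranged from 3 to 5 and decreases from 0 to 3. Of the 36 first-set calls, 31 held under DESeq2, RLE scaling and no filter wherever these gave an adjusted p, and none changed sign. Depth limits FIT1 and TIS11, which had few counts per library.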
